A study of Bos taurus with 42 samples.

Results

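The end points of cloned development before implantation were compared here: 4 libraries of bovine NT blastocysts (replicates 1, 2, 3 and 4) against 3 libraries of MII oocytes (replicates 1, 3 and 4), 7 of the 42 small RNA libraries in the series. All 12345 entries of the deposited table were used. An entry is a small RNA sequence, or a set of sequences, under 1 annotation string. NT blastocysts are embryos made by somatic cell nuclear transfer: the metaphase plate of a matured oocyte was taken out and a cultured fibroblast was put in its place. The donor fibroblasts came from ear tissue of 1 bull, a Brahma Spanish cross, and were serum-starved before transfer, so the cloned embryos carry the genome of a single animal. Embryos were collected 8 days after transfer in pools of 20, and embryo culture used cumulus cells, which nourish the oocyte in the follicle. The oocytes were matured in vitro to metaphase II, the stage at which they receive the donor nucleus. They are other oocytes than those that formed the embryos, and the labels do not say how many made up a pool. The protocol text names 3 pools per stage and the design text 4, and neither says whether pools came from separate sessions, so p-values measure the spread between these libraries. An Ion Proton instrument read the RNA fraction shorter than 200 nt.

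Small non-coding RNAs of the oocyte are largely inherited by the embryo. PIWI-interacting RNAs (piRNAs) are germline RNAs cut from long cluster transcripts that guide PIWI proteins against transposons, and mammalian oocytes and early embryos hold them in large amounts. MicroRNAs (miRNAs) guide Argonaute proteins to mRNAs, and the embryo makes its own set after its genome becomes active. Fragments of tRNAs come from cleavage in the anticodon loop, which gives tiRNAs, from trimming of the ends, or from the leader and trailer removed while the tRNA matures.

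The scale decides what these libraries show. The libraries held similar numbers of listed reads, 408953 to 506363 in oocytes and 296591 to 773476 in NT blastocysts. Of the listed entries, 116 were found in all 42 libraries, 65 of them tRNA-derived and 36 miRNAs. The median of ratios over these entries gave 0.817 to 1.10 times the size factors recovered from the deposited values, so how the deposited factors were made is known only in part. The recovered factors were 0.199 to 0.284 in oocytes and 1.20 to 3.04 in NT blastocysts. After this scaling the normalised reads summed to 1755140 to 2481350 per oocyte library and 174626 to 264199 per NT blastocyst library, a ratio of mean totals of 8.94. Each level below is in these normalised reads, and each change is NT blastocyst minus oocyte on the deposited log2 scale, unless another scale is named. The same changes were computed under 4 other scalings: size factors from the entries found in all 7 libraries, CPM (counts scaled to the same total of listed reads), quantile normalisation, and centring on library medians. A single read is worth 3.52 to 5.03 normalised reads in an oocyte library and 0.329 to 0.834 in an NT blastocyst library. A level of 0 in oocytes therefore allows a mean of up to 13.4 normalised reads (3 reads per library), against 1.74 in NT blastocysts. Floors and intervals cover counting error only. Less RNA per cell and fewer cells of a kind cannot be told apart in such pools.

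Reads of piRNAs were the large majority in oocytes and a minority in NT blastocysts. They made up 90.1%, 91.5% and 88.1% of listed reads in oocyte replicates 1, 3 and 4, against 13.8%, 29.8%, 24.6% and 15.1% in NT blastocyst replicates 1 to 4. The tRNA-derived reads were 3.43%, 3.26% and 6.32% in oocytes and 54.3%, 37.3%, 42.2% and 46.1% in NT blastocysts. Reads of miRNAs were 3.25%, 2.00% and 2.23% in oocytes and 13.1%, 11.7%, 20.3% and 17.8% in NT blastocysts. The groups did not overlap for any of these classes. Fragments of protein-coding RNAs overlapped, with 0.635% to 0.778% in oocytes and 0.601% to 0.893% in NT blastocysts. Ribosomal RNA fragments went from 0.902% ± 0.177 (SD, n = 3) to 8.70% ± 3.29 (n = 4), small nuclear RNAs from 0.180% ± 0.056 to 2.53% ± 1.72, and small nucleolar RNAs from 0.0290% ± 0.0060 to 0.816% ± 0.311. Two-sided exact permutation tests over the 35 splits gave p = 0.0286 for piRNA, tRNA-derived and miRNA shares, which is the smallest p possible, and p = 0.0571 for the others. All 7 adjusted p were 0.0571, so no share passed 0.05 after adjustment. The 95% Wilson interval of a class share was at most ±0.179 points wide, far below these differences.

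**Figure D1:**
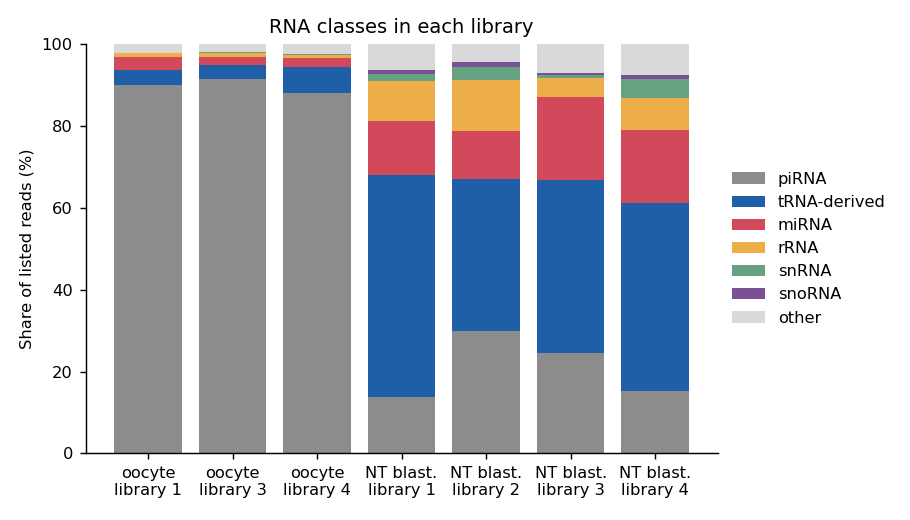
Stacked bars give the share of listed reads (percent, vertical axis) in each RNA class for the 3 oocyte and 4 NT blastocyst libraries (horizontal axis, replicate number). Grey piRNA reads fill 88.1% to 91.5% of the oocyte bars and 13.8% to 29.8% of the NT blastocyst bars, where tRNA-derived reads (blue) are the largest class.

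Entry by entry, 4733 passed the filter on low values and 3797 differed in limma at an adjusted p under 0.05. On the deposited scale 349 were higher in NT blastocysts (7.37%) and 3448 were lower (72.9%), with a median change of -3.00. Without oocyte replicate 1, 3 or 4 fewer entries passed the filter, and 68.9%, 68.3% and 70.1% of them were lower. The split follows the scaling. CPM gave 801 higher (16.9%) and 2397 lower (50.6%) with a median of -2.23. Size factors of the 7 libraries gave 860 (18.2%) and 2260 (47.7%), quantile normalisation 1071 (22.6%) and 1145 (24.2%), and centring 1160 (24.5%) and 750 (15.8%). The entries called the same way under all 5 scalings numbered 348 higher (7.35%) and 737 lower (15.6%). Each of the other 4 scalings called 348 or 349 of the 349 entries that were higher on the deposited scale. For rises, a call under all 5 scalings therefore repeats the deposited call and is no separate check of it. Among entries with a mean of at least 20 normalised reads over the 7 libraries, 6.89% of 2091 were higher and 84.1% lower. Oocyte values alone can reach that mean, and their totals are larger on this scale. The subset therefore favours falls and is no check of their share. No overlap between the groups was seen for 280 entries that were higher (5.92%) and 3413 that were lower (72.1%).

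The classes separated under every scaling. The median change on the deposited scale was -3.39 over 3253 tested piRNA entries, -0.80 over 515 tRNA-derived entries, -0.20 over the miRNA entries, 0.32 over 41 rRNA entries, 1.18 over 79 snRNA entries and 1.37 over 42 snoRNA entries. In CPM the same medians were -2.85, 1.73, 2.46, 3.24, 3.94 and 3.61. So miRNA and tRNA-derived entries had medians below 0 on the deposited scale and above 0 under the other 4 scalings, while the piRNA median was below 0 under all 5. All 5 used the same entries, those that passed the filter on deposited values. Entries with reads in the oocyte libraries alone could pass it, so the scalings do not test how the filter shapes these medians. The calls made under all 5 scalings held 87 higher and 4 lower miRNA entries, 24.9% higher and 11.7% lower of the tRNA-derived entries, 0.461% higher and 20.1% lower of the piRNA entries, and 27 higher and 0 lower snoRNA entries. In oocytes, 855 entries were found in all 3 libraries and in no NT blastocyst library, 793 of them piRNAs. The reverse held for 178 entries, among them 61 tRNA-derived entries and 42 miRNAs. All 12345 listed entries were found in NT 2-cell replicate 4, so a small RNA present only in blastocysts would not be listed.

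**Figure D2:**
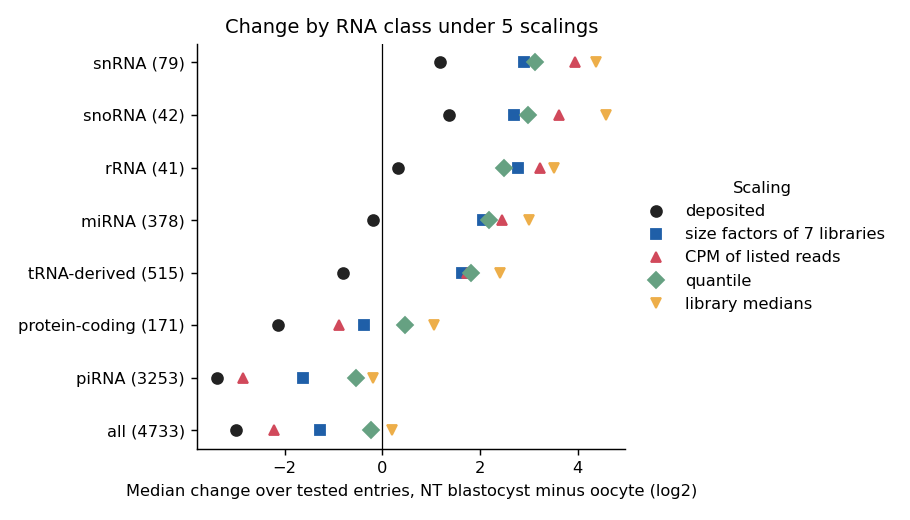
Each symbol is the median change over the tested entries of a class (number in brackets), NT blastocyst minus oocyte in log2 units (horizontal axis), under 1 of 5 scalings. The piRNA median lies below 0 under all 5, from -3.39 on the deposited scale, and the miRNA and tRNA-derived medians cross 0 between the deposited scale and the others.

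The miRNAs with the largest changes on the deposited scale were an entry of an embryonic family and miR-378. The entry shared by miR-302a-3p and miR-302d-3p, products of a cluster typical of pluripotent cells, was at 0 in all 3 oocyte libraries. In NT blastocysts it was at 140.9, 195.3, 381.4 and 190.2 normalised reads. The mean was at least 16.9-fold higher, with a change of 6.39 ± 0.38 (SE, adjusted p = 1.06e-05). The other miR-302 and miR-371 cluster names were not tested, and only 2 of 6 were found. miR-378 is encoded in an intron of a metabolic coactivator gene. It was at 65.4, 9.80 and 7.03 in oocytes and 1651, 1688, 2873 and 1603 in NT blastocysts, a change of 6.38 ± 0.63 (adjusted p = 3.13e-05). Its level per miRNA reads, in CPM, was 47639 to 57566 in NT blastocysts and 180 to 978 in oocytes. The opposite arm miR-378-5p, at 0 in oocytes, was at 87.9 to 143.9. Other miRNAs at 0 in every oocyte library were miR-339a (45.5 to 78.9), miR-361 (34.1 to 50.1), miR-196a (28.7 to 68.3) and miR-1306-5p (21.2 to 40.0). The last of these had a mean under 20 normalised reads. All of the miRNAs in this paragraph were higher under all 5 scalings.

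The imprinted DLK1-DIO3 locus carries a large miRNA cluster expressed from the maternal chromosome. Of its 52 names 17 were found, and 10 of 18 listed entries were tested. On the deposited scale 8 were higher and 0 lower, in CPM all 10 were higher. Over all tested miRNA entries 23.02% were higher and 32.8% lower on the deposited scale, and 60.1% and 5.82% in CPM. As a share of miRNA reads, 8 members were higher (background 23.3% higher and 24.9% lower over all tested miRNA entries). miR-376c-3p was at 0, 0 and 7.03 in oocytes and at 131.7, 65.2, 132.6 and 176.6 in NT blastocysts, a change of 4.87 ± 0.61 (adjusted p = 9.81e-05). miR-376e was at 0 in all oocytes and at 55.9, 27.7, 51.3 and 80.7 in NT blastocysts, at least 4.01-fold higher. Only these 2 members had a mean of 20 or more over the 7 libraries. The summed list was 0.030% to 0.053% of miRNA reads in oocytes and 0.519% to 1.40% in NT blastocysts. With so few oocyte reads, its members passed the filter mainly through the NT blastocyst libraries, where they were high. The counts of higher members are therefore largely set by the filter and are no test of the list. Donor fibroblasts had a mean of 14.4 normalised reads of miR-376c-3p (range 0 to 38.7) and 0.743 of miR-376e.

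The miR-17-92 cluster and its paralogs, which favour proliferation, formed the largest miRNA group in NT blastocysts. They made up 15.1% to 16.4% of miRNA reads in oocytes and 31.1% to 32.7% in NT blastocysts, with no overlap. Of 23 tested entries, 3 were higher and 0 lower on the deposited scale, 17 and 0 in CPM, and 8 and 0 as shares of miRNA reads. That is 13.0% higher on the deposited scale, under the 23.02% of all miRNA entries, 73.9% against 60.1% in CPM, and 34.8% against 23.3% as shares. The most abundant was miR-19b at 2788, 2494 and 1916 in oocytes and 3360, 2999, 4327 and 3199 in NT blastocysts. Its change of 0.53 did not pass on the deposited scale (adjusted p = 0.107), and as a share of miRNA reads it rose by 1.05 ± 0.10 (adjusted p = 1.16e-04). miR-20a behaved alike on both scales, with 0.82 (adjusted p = 0.0564, and 0.0496 without NT blastocyst replicate 4) and 1.33 (adjusted p = 5.80e-05). miR-19a and miR-106b-5p were higher under all 5 scalings, by 1.06 and 1.59 on the deposited one. The miR-19a call was lost without any 1 of the 3 oocyte libraries (limma adjusted p = 0.0556, 0.0555 and 0.0850). miR-92a was at 125.8, 58.8 and 66.8 against 121.7, 157.8, 197.5 and 122.5, and its change of 0.85 did not pass on the deposited scale (adjusted p = 0.0648), though without oocyte replicate 1 it was 1.17 (adjusted p = 0.0420). miR-17-5p itself changed by -0.22 on the deposited scale (adjusted p = 0.600) and by 0.29 as a share of miRNA reads (adjusted p = 0.136), and neither passed. Without oocyte replicate 1 the deposited value was 0.0045. Its sign was positive under the other 4 scalings, where CPM gave 2.94.

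The let-7 family, which accumulates with differentiation and is held back in pluripotent cells, took a smaller part of the blastocyst miRNAs. It was 3.09% to 5.16% of miRNA reads in oocytes and 0.461% to 0.696% in NT blastocysts. Of 15 tested entries, 14 were lower on the deposited scale (background 72.9% lower over all entries). As shares of miRNA reads 12 were lower (background 24.9% over miRNA entries), and 0 were lower in CPM, where 1 was higher. let-7a-5p was at 805, 304 and 489 in oocytes and 70.0, 49.7, 100.4 and 37.7 in NT blastocysts. It fell by 2.92 on the deposited scale (SE 0.46, adjusted p = 3.73e-04) and by 2.52 as a share of miRNA reads, and its CPM change of 0.13 did not pass (adjusted p = 0.809). let-7f and let-7g fell by 3.42 and 3.48 on the deposited scale, while their CPM changes of -0.43 and -0.61 did not pass. The miR-15/16 family, which restrains the cell cycle, showed the same order. It held 9.73% to 13.4% of miRNA reads in oocytes and 2.76% to 4.98% in NT blastocysts. Of 16 entries 13 were lower on the deposited scale, 12 as shares of miRNA reads and 1 in CPM, where 6 were higher. Over all tested miRNA entries, 32.8% were lower on the deposited scale, 24.9% as shares and 5.82% in CPM, where 60.1% were higher. Its entry miR-15b went the other way, from 0, 0 and 17.6 in oocytes to 103, 73.1, 254 and 63.0, and was higher under all 5 scalings. It was the only 1 of the family called higher on the deposited scale, where the tested entry miR-15b-5p was not.

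A few miRNAs were much lower in NT blastocysts. miR-138-2-5p, best known from the nervous system, was at 629, 1005 and 679 in oocytes and 14.2, 12.8, 16.9 and 14.7 in NT blastocysts. The fall of 5.29 ± 0.31 (adjusted p = 1.06e-05) was called under all 5 scalings, with -2.51 in CPM. miR-138-1-5p fell by 6.56, also under all 5, and was at 0 in 3 of the 4 NT blastocyst libraries. miR-31 fell from 785, 323.4 and 376.2 to 15.8, 7.90, 23.7 and 13.5 (-4.59 ± 0.44, all 5 scalings). miR-202-5p, a gonadal miRNA, was at 891, 230 and 415 in oocytes and 15.8, 4.28, 20.9 and 9.42 in NT blastocysts, lower on the deposited scale by 4.80 and in CPM by 2.16 but not under all 5. miR-155-5p, miR-497-5p, miR-507b-3p, miR-10b-5p, miR-105a, miR-335-5p, miR-146b and miR-31-5p fell by 3.50 to 4.15 on the deposited scale and were not called under all 5 scalings. miR-205-5p, an epithelial miRNA, was at 820, 706 and 830 in oocytes and 56.7, 77.1, 75.03 and 60.1 in NT blastocysts. It fell by 3.46 ± 0.29 (adjusted p = 1.71e-05) on the deposited scale and by 3.04 as a share of miRNA reads. In CPM its change of -0.39 did not pass (adjusted p = 0.289), and with size factors of the 7 libraries it was 0.02.

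The most abundant oocyte miRNA was miR-21-5p, at 7510, 2411 and 3526 in oocytes and 2092, 782, 2641 and 1921 in NT blastocysts. The groups overlapped and the change of -1.23 did not pass (adjusted p = 0.0613), while without oocyte replicate 3 it was -1.60 (adjusted p = 0.0258). Its CPM change was 1.93, so the sign depends on the scale. The same turn of sign held for miR-16a-5p (-2.59 deposited, 0.55 in CPM), miR-30b-5p (-1.29 and 1.86), miR-30d-5p (-1.60 and 1.55), miR-148a (-2.67 and 0.10), miR-10b (-2.43 and 0.56), miR-30d (-0.79 and 2.36) and miR-34c (-0.67 and 1.87). The deposited call of miR-30b-5p was lost without oocyte replicate 1 or 3 or NT blastocyst replicate 1 or 4 (limma adjusted p = 0.0607 to 0.106). That of miR-30d passed without NT blastocyst replicate 1 (-0.95, adjusted p = 0.0415). As shares of miRNA reads, miR-16a-5p fell by 2.10, miR-30b-5p by 0.79, miR-30d-5p by 1.10, miR-148a by 2.55 and miR-10b by 2.09. miR-30e-5p stood apart within its family. It rose from 191, 132.3 and 94.9 to 573, 594, 994 and 640, by 2.30 ± 0.37 (adjusted p = 3.88e-04), and under all 5 scalings. miR-34a-5p, a p53 target, rose by 2.68 (adjusted p = 0.00173) and under all 5 scalings. miR-449a, of the same seed family, was at 30.2, 0 and 0 in oocytes and 19.2, 18.1, 66.01 and 9.42 in NT blastocysts, and its change of 2.15 did not pass (adjusted p = 0.0723). Without oocyte replicate 1, the only oocyte library with its reads, the change was 3.40 (adjusted p = 6.28e-05).

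Lists of miRNAs that mark other cells were summed as shares of miRNA reads. Those for cumulus and granulosa cells and for muscle and nervous tissue did not overlap between the groups, and those for fibroblasts and for blood did. The list for cumulus and granulosa cells, with 9 of 11 names found, was 2.06% to 3.60% of miRNA reads in oocytes and 0.426% to 0.653% in NT blastocysts, and on the deposited scale 5 of its 12 tested entries were lower and 3 higher (all miRNA entries 32.8% and 23.02%). Its entries miR-132-3p and miR-335-3p were at 0 in all 7 libraries, while miR-132, miR-335-5p and miR-335 had reads and were tested. Oocyte replicate 1 had the highest miR-202-5p, miR-21-5p, miR-31-5p, miR-155-5p and let-7a-5p, of which only miR-202-5p is on this list. The list member miR-335-5p was highest in oocyte replicate 3, as were miR-138-2-5p and miR-10b-5p, which are not on it. The fibroblast and mesenchymal list was 7.46% to 15.2% in oocytes and 3.50% to 7.70% in NT blastocysts. Of its 23 entries 21 were tested, among them miR-221-3p and miR-221, while miR-221-5p was at 0 in all 7 libraries. The blood and serum list was 0.090% to 0.279% and 0.053% to 0.117%. Of its 11 entries 5 were tested, from miR-150, miR-223 and miR-451, while miR-142-3p was at 0. The list of muscle and nervous tissue, which holds miR-138 and also miR-122, a liver miRNA, was 2.91% to 5.16% and 1.24% to 1.32%. Of its 20 entries 12 were tested, among them miR-122-5p and miR-122, while miR-133a and miR-122-3p were at 0. The part of other cells in the results above was not tested.

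**Figure D3:**
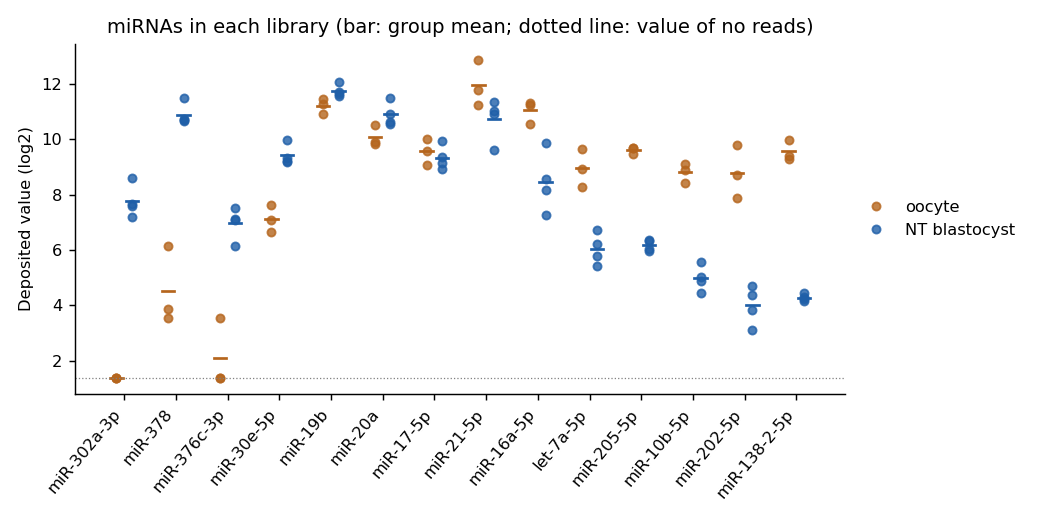
Deposited log2 values (vertical axis) of 14 named miRNAs in the 3 oocyte libraries (brown) and the 4 NT blastocyst libraries (blue), with group means as bars and the value of no reads as a dotted line. miR-302a-3p lies on the dotted line in all 3 oocyte libraries, and the groups of miR-19b to miR-21-5p lie close together or overlap while those of miR-138-2-5p are far apart.

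Reads from tRNAs shifted toward 5′ tiRNAs, the 5′ fragments left by cleavage in the anticodon loop. With each entry typed by the first name in its annotation string, they were 20.0%, 9.54% and 49.6% of tRNA-derived reads in oocytes. In NT blastocysts they were 58.0%, 55.3%, 57.2% and 58.0%. That share rose, and 4 others fell, at an exact permutation p of 0.0286 each (adjusted p = 0.0457 over 8 types). The 3′ trailers (tRF-1), the tails cut from precursor tRNAs, fell from 29.8%, 38.7% and 20.4% to 12.8%, 10.6%, 7.46% and 10.0%. The 5′ leaders, also precursor parts, fell from 4.22%, 4.96% and 2.19% to 0.0436%, 0.134%, 0.0979% and 0.0702%. Short 5′ fragments fell from 15.3% ± 3.58 (n = 3) to 8.64% ± 0.915 (n = 4), and internal 3′ fragments from 0.0772% ± 0.0330 to 0.0226% ± 0.0128. The 3′ fragments that end in the added CCA were at 7.78%, 7.50% and 3.23% against 1.69%, 3.33%, 2.60% and 4.205%, which overlap (adjusted p = 0.0857). Oocyte replicate 4 stood apart from the other oocytes in its high 5′ tiRNA share.

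**Figure D4:**
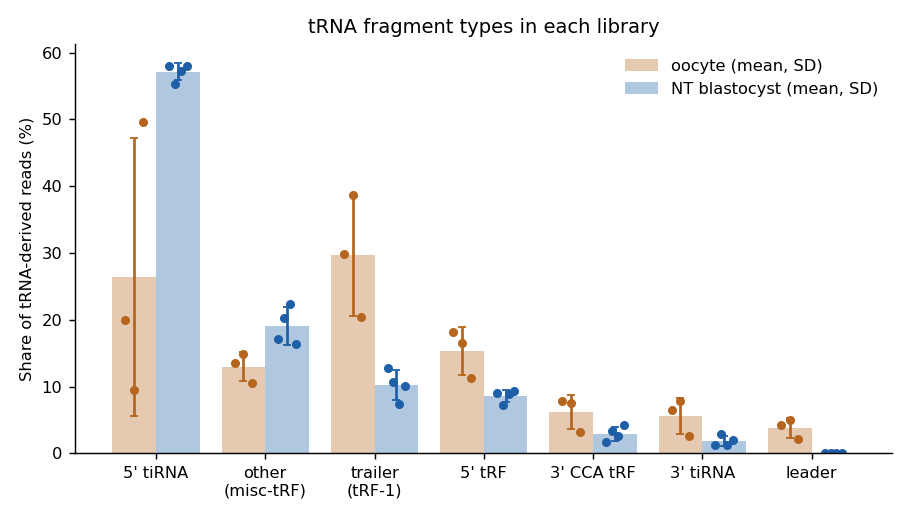
Bars give the mean share of tRNA-derived reads (percent, vertical axis) per fragment type, with SD whiskers and 1 dot per library, for 3 oocyte and 4 NT blastocyst libraries. The 5′ tiRNA bars reach 57.1% in NT blastocysts with dots between 55.3% and 58.0%, while the oocyte dots spread from 9.54% to 49.6%.

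Most 5′ tiRNAs of named tRNAs were higher in NT blastocysts. Of 52 tested entries 38 were higher and 5 lower on the deposited scale, and the 38 were higher under all 5 scalings. Over all tRNA-derived entries, 25.05% were higher and 43.5% lower on the deposited scale, and 24.9% and 11.7% under all 5. All 7 entries of valine tRNAs, all 7 of lysine, 4 of glutamate, 4 of alanine, 3 of glutamine and 2 of arginine tRNAs were higher on the deposited scale, as were 4 of 5 of glycine and 1 of 2 of methionine tRNAs, and 0 of 2 of aspartate tRNAs. The valine part of all 5′ tiRNA reads was 1.36%, 2.41% and 1.01% in oocytes and 28.4%, 16.6%, 19.5% and 18.0% in NT blastocysts. The lysine part went from 3.78%, 5.97% and 2.39% to 17.3%, 13.6%, 20.3% and 24.8%, and the glutamate part from 1.39%, 3.81% and 1.46% to 7.45%, 10.1%, 11.6% and 8.20%. Each had an exact permutation p of 0.0286 (adjusted p = 0.0429 over 15 groups). The same values held for the smaller parts of proline, which went from 0.545% ± 0.424 (n = 3) to 1.67% ± 0.536 (n = 4), and glutamine, from 0.091% ± 0.047 to 0.672% ± 0.103. They also held for cysteine and leucine, which rose, and for arginine and serine. Arginine and serine were at 0 in all oocytes and at means of 0.047% and 0.018% in NT blastocysts. Parts this small can go unread in the oocyte libraries, so these differences may lie at the floor. The glycine part, the largest in both groups among named tRNAs as typed here, was 27.7%, 48.4% and 69.9% against 38.1%, 48.9%, 37.2% and 35.99%, and overlapped. An entry shared by GluTTC and GluCTC tRNAs has misc-tRF in its first name and 5′ tiRNA in its others, so these parts leave it out. It had 100 to 1160 reads in oocytes and 17728 to 49906 in NT blastocysts. Counting it as a 5′ tiRNA would raise the glutamate part and lower the others. Entries with no amino acid in their name fell from 62.2%, 28.8% and 18.8% to 1.54%, 2.87%, 2.56% and 2.57%.

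The entry with the greatest gain on the deposited scale was the 5′ tiRNA of tRNA 1469 (ValTAC), at 0 in every oocyte library and at 1221, 717, 652 and 435 in NT blastocysts. It was at least 56.2-fold higher, with a change of 8.11 ± 0.39 (adjusted p = 1.04e-05). The 5′ tiRNA of tRNA 1458 (LysTTT) was at 0 in oocytes and at 573, 324, 486.9 and 498, at least 35.0-fold higher. A second ValTAC entry, of tRNA 3277, rose from 20.1, 9.80 and 38.7 to 3784, 1620, 1597 and 1213 (6.21 ± 0.52). The 5′ fragment shared by ArgACG tRNAs was at 0 in oocytes and at 149, 182.5, 549 and 154.3 in NT blastocysts. The 5′ tiRNA of LysTTT tRNA 1430 and its copies rose by 5.91. These 5 were higher under all 5 scalings. Copies of a tRNA gene share sequence, so such entries are not independent of each other.

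By level the leading entries were others, chosen after their values were seen. The entry shared by GluTTC and GluCTC tRNAs, typed above as misc-tRF, was at 503.3, 1421 and 4078 in oocytes. In NT blastocysts it was at 21407, 16438, 20244 and 10438 (3.52 ± 0.65, limma adjusted p = 9.66e-04). The 5′ tiRNA of ValAAC and ValCAC tRNAs rose from 151, 157 and 443 to 15572, 5245, 8161 and 6005 (5.15 ± 0.52), and that of LysTTT tRNA 6767 from 287, 205.8 and 527 to 8258, 3394, 6368 and 6102 (4.17 ± 0.44). The 5′ tiRNA of GlyGCC, at 1228, 1671 and 27308 in oocytes and 7426, 7698, 7676 and 4863 in NT blastocysts, was the most abundant in oocytes through replicate 4 alone, and its change of 0.83 did not pass (adjusted p = 0.448). Without that library the change was 2.24 (adjusted p = 7.34e-04). The GlyCCC entry rose by 1.64 (adjusted p = 0.0356), a call lost without oocyte replicate 1 or 3 or NT blastocyst replicate 1, 2 or 3 (limma adjusted p = 0.0516 to 0.136). The trailer with the highest mean in NT blastocysts, tRF-1 number 4060, was at 498, 157 and 204 in oocytes and 15636, 7873, 5450 and 6008 in NT blastocysts, a rise of 4.95 ± 0.52, under all 5 scalings.

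Most trailers, leaders and misc-tRF fragments of cysteine tRNAs were lower in NT blastocysts. Of 150 tested trailers 130 were lower and 8 higher on the deposited scale, 93 and 8 in CPM, and 38 and 8 under all 5 scalings. Of 15 leaders 12 were lower and 1 higher, and of 26 such cysteine fragments 23 were lower and 1 higher. Over all tRNA-derived entries 43.5% were lower and 25.05% higher on the deposited scale, and 27.4% and 50.3% in CPM. Trailer number 2868 was at 2562, 4337 and 3098 in oocytes and 29.2, 36.6, 20.3 and 12.4 in NT blastocysts, a fall of 6.86 ± 0.40 (adjusted p = 1.06e-05). Trailer 3458 was at 140.9, 284 and 133.6 in oocytes and at 0 in all 4 NT blastocyst libraries. That is at least 107-fold lower on the deposited scale and at least 11.4-fold lower in CPM. Trailers 460 and 508 fell by 6.27 and 6.21, and a CysGCA fragment shared by tRNA 5380 and its copies by 6.25. A fragment of GlyTCC tRNA 6488, chosen after its values were seen, fell from 3669, 4621 and 2619 to 34.2, 147.6, 111 and 99.5. All of these falls held under all 5 scalings. An entry annotated to the predicted gene GENSCAN00000044498, at 2537, 4062 and 3055 normalised reads in oocytes and 18.3, 45.1, 19.2 and 14.1 in NT blastocysts, was also lower.

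Most piRNA entries were lower in NT blastocysts, while the 3 leading clusters supplied similar parts of the piRNA reads in both groups. Of 3253 tested entries 2876 were lower and 15 higher on the deposited scale, 2168 and 43 in CPM, and 20.1% and 0.461% of them under all 5 scalings. As shares of piRNA reads, 166 were higher (5.1%) and 1069 lower (32.9%). With centring on library medians the median piRNA change was -0.19. The entries named 616 clusters first. The leading cluster, chr6:110178897-110333441 (build bosTau8/UMD3.1, as all coordinates here), supplied 32.8% ± 0.487 (SD, n = 3) of piRNA reads in oocytes and 33.99% ± 1.31 (n = 4) in NT blastocysts. Next came chr17:62734087-62862016 with 17.8% ± 0.840 and 17.1% ± 0.486, and chr23:13905000-14137856 with 17.5% ± 0.325 and 16.5% ± 0.610. The 3 together gave 68.1% ± 1.57 and 67.6% ± 1.03. Genes at these clusters were not analysed here.

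Among the 22 clusters that supplied at least 0.5% of oocyte piRNA reads, 8 (36.4%) had groups that did not overlap, 6 lower and 2 higher in NT blastocysts. None passed after adjustment, where the lowest adjusted p was 0.105 from an exact permutation p of 0.0286. The cluster chr9:23712000-23719387 was at 0.562%, 0.560% and 0.484% of piRNA reads in oocytes and 2.25%, 2.69%, 2.17% and 2.14% in NT blastocysts, a ratio of 4.32. It held 7 entries, and 2 of them carried 59.5% and 38.4% of its oocyte reads. Those 2 entries rose as shares of piRNA reads, by 1.89 and 2.39 (adjusted p = 1.22e-05 and 5.75e-06), while their CPM changes were -0.29 and 0.21 and their deposited changes -3.44 and -2.94. The cluster chr2:79172175-79177946 lay at the other end, with 0.730%, 0.729% and 0.614% in oocytes and 0.155%, 0.332%, 0.215% and 0.200% in NT blastocysts, a ratio of 0.327. A single entry held 78.5% of its oocyte reads. The cluster chr1:24843004-24848302 went from 1.03%, 1.01% and 0.951% to 0.491%, 0.531%, 0.477% and 0.488%. The cluster chr16:61871008-61877017 went from 1.28% ± 0.086 to 0.717% ± 0.067, and chr1:94550396-94556945 from 0.928% ± 0.058 to 1.28% ± 0.114.

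**Figure D5:**
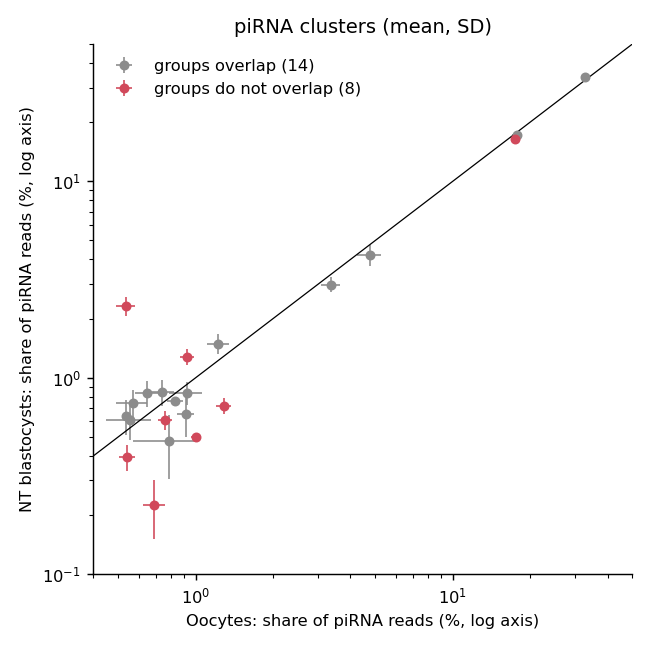
Each dot is 1 of 22 piRNA clusters, with its mean share of piRNA reads in oocytes (horizontal, percent, log axis) and NT blastocysts (vertical, percent, log axis) and SD whiskers, and the line marks equal shares. The 3 leading clusters lie near the line, and the red dot farthest above it is the chromosome 9 cluster at 0.535% and 2.31%.

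On the deposited scale single piRNA entries had the largest falls. An entry shared by chr17:62734087-62862016 and a chromosome 29 cluster, chr29:7529040-7538022, was at 584, 975 and 1076 in oocytes and at 0, 3.62, 0 and 0 in NT blastocysts, a fall of 7.97 ± 0.50 (adjusted p = 1.06e-05). A mismatched entry of chr29:7529040-7538022 alone fell by 7.74, one naming chr1:24843004-24848302 first by 7.78, and one naming chr10:80821066-80829790 first by 7.61. Of the 15 higher entries, 1 had a mean of at least 20 normalised reads, a mismatched entry of chr14:476023-487893. It was at 10.1, 44.1 and 21.1 in oocytes and 45.0, 144.3, 52.5 and 68.3 in NT blastocysts (1.49 ± 0.54, adjusted p = 0.0306), just above the oocyte range, a call lost without oocyte replicate 1 or NT blastocyst replicate 2 or 4 (limma adjusted p = 0.0537 to 0.0894). The others named were at 0 in oocytes and at means of 4.57 to 9.38 in NT blastocysts, under what the oocyte libraries could show. Reads in entries with a mismatch in their first name were 16.7%, 20.7% and 17.1% of miRNA reads in oocytes and 10.9%, 12.2%, 11.6% and 11.7% in NT blastocysts (exact permutation p = 0.0286, adjusted 0.0571). In piRNAs they were 20.4% ± 0.780 and 22.4% ± 0.974.

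Most snoRNA entries, from RNAs that serve ribosome assembly, were higher in NT blastocysts. The counts of the spliceosomal RNAs differed among themselves on the deposited scale, and the families were not tested against each other. Of 42 snoRNA entries 27 were higher and 2 lower on the deposited scale, and 41 and 0 in CPM. U3, the snoRNA of early rRNA processing, had 4 of 5 entries higher and went from 0.0022% to 0.0046% of listed reads in oocytes to 0.077% to 0.717% in NT blastocysts. One U3 entry was at 0, 9.80 and 59.8 in oocytes and 598, 677, 100.4 and 304 in NT blastocysts (4.66 ± 1.09, adjusted p = 0.00371). A second, chosen after its values were seen, was at 35.2, 24.5 and 10.5 against 578, 784, 74.5 and 390 (3.72 ± 0.79). U2 fragments had 11 of 23 entries higher and 5 lower, and U1 fragments 7 of 16 higher and 1 lower. U2 went from 0.044% to 0.091% of listed reads to 0.225% to 1.44%, and U1 from 0.031% to 0.063% to 0.189% to 2.11%. U5 had 5 of 17 entries higher and 2 lower, U4 1 of 7 higher and 2 lower, and U6 1 of 13 higher and 3 lower. In CPM 16 U2, 13 U1, 14 U5, 4 U4 and 1 U6 entries were higher, and 4, 1, 1, 1 and 0 lower. The U6 share, 0.015% to 0.034% in oocytes and 0.0098% to 0.150% in NT blastocysts, overlapped. Over all entries 7.37% were higher and 72.9% lower on the deposited scale, and 16.9% and 50.6% in CPM. Fragments of 5S rRNA had 4 of 26 entries higher and 5 lower on the deposited scale and 18 and 2 in CPM. NT blastocyst replicate 3 had the lowest share of rRNA, snRNA and snoRNA reads of its group. The 7SK RNA, a regulator of transcription elongation, had 8 of 12 entries lower and 2 higher on the deposited scale and 5 and 3 in CPM, shares of lower entries under the 72.9% and 50.6% of all entries. Its summed share of listed reads was 0.137% to 0.149% in oocytes and 0.036% to 0.058% in NT blastocysts. Its entry ENSBTAG00000045101.1 was at 695, 975 and 696 in oocytes and 0, 9.88, 6.21 and 3.53 in NT blastocysts, and fell by 6.71 ± 0.59 under all 5 scalings.

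The stages between oocyte and NT blastocyst and the donor cells place some of these levels. miR-302a-3p had means of 4.24 normalised reads in NT 2-cell embryos, 0 in NT 8-cell embryos and 110 in NT morulae, against 227 in NT blastocysts. miR-378 was at 17.3, 24.1 and 1162 in the same stages. miR-138-2-5p was at 551, 569 and 137, and trailer 2868 at 3282, 2082 and 368. miR-205-5p was at 727, 621 and 326. So in each of these the morula mean lay between those of the 8-cell stage and the blastocyst. Donor fibroblasts had 25.1 of miR-302a-3p (range 0 to 66.6), 341 of miR-378 (232 to 555), 1.30 of miR-138-2-5p and 0.181 of trailer 2868.

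IVF blastocysts, made from matured oocytes with semen of a Holstein bull and collected on the same day, were the fertilised end point and were compared with NT blastocysts in the same way. Of 2928 entries tested between NT and IVF blastocysts (4 and 3 libraries), 0 were higher and 2 lower in NT blastocysts (0.0683%), while 400 had an unadjusted p under 0.05 in limma. Of the 87 entries chosen by the naming rule and tested there, 0 differed. Without IVF blastocyst replicate 4, 0 were lower, and without replicate 2, 17 were lower and 1 higher. Leaving out IVF blastocyst replicate 3 or NT blastocyst replicate 1, 2 or 4 left 1, and NT blastocyst replicate 3 gave 3. Trailer 4030 was at 23.4, 39.8 and 120 in IVF blastocysts and at 0 in all 4 NT blastocyst libraries, lower by 4.39 (adjusted p = 3.50e-05). A mismatched piRNA entry of chr14:4892124-5053723 was lower by 2.52 (adjusted p = 0.0256). The piRNA share was 27.5% ± 5.97 in IVF blastocysts and 20.8% ± 7.66 in NT blastocysts (exact permutation p = 0.314), and that of tRNA-derived reads 46.4% ± 12.5 and 45.0% ± 7.18 (p = 0.857, exact permutation). miR-302a-3p was at 257 and 227, and miR-378 at 1581 and 1953, in IVF and NT blastocysts. A p above the threshold does not show that the 2 kinds of blastocyst are alike.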

How the data were processed

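The deposited values are variance-stabilised log2 values of small RNA reads (RNA under 200 nt, Ion Proton), made with DESeq2 after trimming with Trim Galore on build bosTau8/UMD3.1, per the submitters' processing notes. The table lists 12345 entries in 42 libraries. No label or header names the aligner or the annotation sources. The transformation was inverted: with the smallest entry taken as 2 reads, 100% of the 188126 values above the lowest came out as whole reads within 0.01 reads. No stored value equals 1 read.

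The filter on low values kept entries that exceeded the lowest value of the table (1.37) by 1 log2 unit or more in 3 or more of the 7 libraries. The main test was limma 3.58.1 (R 4.3.3) on the deposited log2 values, with intensity trend and Benjamini-Hochberg adjustment at 0.05, fitted to these 7 libraries alone. Shares were tested with two-sided exact permutation tests over 35 splits. CPM values were taken to log2 after adding a pseudocount of 1. The script was tested on simulated data. Known changes were recovered, but unchanged entries of low mean were often called higher in NT blastocysts, since a read weighs more in oocyte libraries. In the simulated data, calls among entries with a mean of 20 normalised reads or more, added after seeing this, did not show that fault. In the real data this mean can be reached through oocyte reads alone.

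No 2 libraries of a group were copies. Named entries were, in each direction and among those called, the 10 miRNAs without mismatch, 5 tRNA-derived RNAs, 4 piRNAs and 1 of each other class with the largest change, the 5 miRNAs of largest mean in each group, up to 3 called members of each miRNA list, and a fixed set of 14 miRNAs. Some list members are given by counts only. The members, lists and tests were chosen with earlier results of these data known. Alternatives were other filters, scalings, tests, sample sets and left-out libraries.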

Additional observations from a re-analysis of the deposited data

Results flagged for a closer look

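In 10 of 104 groups of 4 NT blastocyst values tested, 1 library stood far from the other 3. The chance rate of about 1 in 20 is for independent values clear of the floor. Several of these groups had the other 3 libraries at the lowest value, and some entries share sequence. The count can therefore not be set against that rate. NT blastocyst replicate 3 was the high one for miR-378 (deposited log2 value 11.49, next 10.73), for the 5′ fragment of ArgACG tRNAs (9.12, next 7.55), for miR-146b (3.16, next 2.59) and for miR-106b-5p (9.70, next 9.07). Replicate 2, the deepest library, was the only one with reads for trailer 460 (2.38, others at the lowest value of 1.37), the CysGCA fragment of tRNA 5380 (3.61), the entry shared by chr17:62734087-62862016 and chr29:7529040-7538022 (2.99) and the mismatched chr29:7529040-7538022 entry (2.59). Replicate 1 was the only one with reads for miR-138-1-5p (2.93). Replicate 4 was the low one for the 5′ tiRNA of GlyGCC (12.25, next 12.86).

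Of the comparison between NT and IVF blastocysts, which asks whether the cloned end point differs from the fertilised one, 2 entries differed in limma: trailer 4030 with -4.39 and the mismatched entry of chr14:4892124-5053723 with -2.52, both lower in NT blastocysts. The trailer was at 0 in all 4 NT blastocyst libraries and in all 3 oocyte libraries.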

How the results depend on the processing

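The scaling moved the calls most. Of the entries tested, 7.37% were higher and 72.9% lower in NT blastocysts as reported, 18.2% and 47.7% with size factors of the 7 libraries, 22.6% and 24.2% with quantile normalisation, 16.9% and 50.6% in CPM, 24.5% and 15.8% when centred, 4.35% and 80.9% in voom on deposited scaling and 17.2% and 51.8% in voom on listed reads. A stricter filter, which tests fewer entries, gave 6.81% and 84.8%, and a mean of 20 normalised reads or more (added after seeing the data, as was voom on listed reads) 6.89% and 84.1%. Without 1 library 5.80% to 10.9% were higher and 68.3% to 76.2% lower. The cause of the shifts between scalings was not tested.

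Under size factors of the 7 libraries, quantile normalisation, CPM, voom on listed reads and centring, in that order, the sign turned for miR-21-5p (2.33, 0.43, 1.93, 1.89, 1.97), miR-30b-5p (2.26, 0.91, 1.86, 1.89, 1.91), miR-30d-5p (1.94, 0.65, 1.55, 1.54, 1.60), miR-10b (0.91, 0.63, 0.56, 0.52, 0.78), miR-17-5p (3.32, 2.05, 2.94, 2.95, 2.98), miR-148a (0.45, 0.45, 0.10, 0.18, 0.53), miR-30d (2.75, 1.52, 2.36, 2.36, 2.41) and miR-34c (1.71, 2.08, 1.87, 1.62, 2.53). Under the same settings but quantile normalisation it turned for miR-16a-5p (0.96, 0.55, 0.58, 0.61) and let-7a-5p (0.52, 0.13, 0.14, 0.28). It also turned for miR-205-5p with size factors of the 7 libraries (0.019), for miR-205 with quantile normalisation (0.036) and centring (0.10), and for miR-17-5p as a share of miRNA reads (0.29) and without oocyte replicate 1 (0.0045), with -0.46 as the lowest value without 1 library.

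As shares of entries found, the class differences passed 0.05, in points: piRNA -25.7, tRNA-derived 6.83, rRNA 0.870, snRNA 1.65, snoRNA 1.32 and other 7.24, while miRNA at 7.83 did not (adjusted p = 0.0571). Without the 10 most abundant tRNA-derived entries the fragment type differences no longer passed: 5′ tiRNAs 38.7, tRF-1 -30.8, leaders -4.55, 5′ fragments -3.10 and internal 3′ fragments -0.033 points, and the CCA-ending fragments turned to 1.07. With 1 library left out the exact test cannot pass after adjustment, and the differences ranged over 22.3 to 42.3, -24.0 to -14.9, -4.51 to -3.12, -8.70 to -5.28 and -0.068 to -0.036. Between NT and IVF blastocysts 1 entry was higher when centred and 1 lower in the model over 12 groups, and without 1 library 0 to 17 were lower and 0 to 1 higher.

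Same-numbered oocyte and NT blastocyst libraries correlated at 0.0035, -0.29 and 0.054 in their deviations from the group means, and other pairs at -0.18 to 0.34. The replicate numbers thus showed no pairing, but so few libraries cannot tell whether pools shared a session. With the replicate number as a block, 6.25% of entries were higher and 74.1% lower, and 0 and 2 between NT and IVF blastocysts.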
